A study of Mus musculus with 4 samples.

Results

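Type I interferon-stimulated genes are the genes that cells switch on when interferon alpha or beta binds its receptor, and 37 of them were named by symbol and looked up in 4 mouse single-cell RNA libraries. The features lists held 35 of the 37 in the lung libraries (all but Mx1 and Mx2), of 32285 features, and 36 of the 37 in the allograft libraries (all but Mx2), of 31053 features. RPR2 and CRPR2 were tumours from the lungs of mice with small cell lung cancer, a neuroendocrine carcinoma, started by gene deletion. In this field RPR2 stands for deletion of Rb1, Trp53 and Rbl2, and CRPR2 for the same model with Cracd, an actin capping regulator, deleted too, although the labels spell out neither name. The other libraries, labelled preSC_WT (genotype WT) and preSC_CracdKO (genotype CracdKO), were allograft tumours grown from the mouse cell line preSC. No strain, age, sex, host or promoter driving the deletions is given in the labels, nor whether the knockout line is 1 clone. There was 1 library per group, so no difference below has a replicate check, no p-value was computed, and the intervals cover counting error only. Those intervals are at 95% throughout.

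As background, interferon alpha and beta bind the receptor chains Ifnar1 and Ifnar2, the kinases Jak1 and Tyk2 are activated, and a factor that contains Stat2 and Irf9 forms and binds interferon-stimulated response elements in promoters. The genes it switches on detect viral RNA (Ifih1, Ddx58), block translation or degrade RNA (the IFIT and OAS families, Eif2ak2), tag proteins (Isg15) and stop viral entry or release (Ifitm3, Bst2). Small cell lung cancers with strong neuroendocrine character are known for low expression of this program and of antigen presentation. Interferon gamma uses another receptor and acts through gamma-activated sites, and part of its targets overlap with those of type I interferon.

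The letters of the response element can be read in promoters of several members. RefSeq promoters (250 bases before to 50 after a gene start, GRCm38.p6) were matched by symbol for 25 of the 37 members, in 27 entries. The searched letters were GAAANNGAAA, which is 10 letters long and read on both strands, and they were found in 14 of the 27 member promoters (51.9%) against 1131 of 32851 promoters of the same length (3.44%). The letters TTCNNNGAA, the gamma-activated site, were found in 6 of the 27 (22.2%) against 2726 of 32851 (8.30%). A match describes the letters and is not a measured binding site. The windows below show the matches of Isg15, Rsad2, Ifit1, Ifit3, Ifit3b and Trim30a on the genome's plus strand, with the matched letters in capitals. They were chosen among the promoters with a match because these members mark extremes of the levels and spreads described below. Other members with such extremes, Oasl1 and Cmpk2 among them, had no match of the response element. Nor had the promoters found for Oasl2, Irf7, Ifi44, Herc6, Ifit2, Ifi35, Dtx3l, Samd9l, Trim25 and Xaf1.
Isg15, chr4:156200860-156200911: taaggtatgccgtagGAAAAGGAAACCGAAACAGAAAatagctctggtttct
Rsad2, chr12:26456548-26456587: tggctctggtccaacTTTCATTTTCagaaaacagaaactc
Ifit1, chr19:34640770-34640828: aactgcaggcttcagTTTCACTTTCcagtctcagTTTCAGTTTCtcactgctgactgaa
Ifit3, chr19:34583358-34583431: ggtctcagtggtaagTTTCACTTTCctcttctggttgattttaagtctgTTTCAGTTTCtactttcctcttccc
Ifit3b, chr19:34607754-34607827: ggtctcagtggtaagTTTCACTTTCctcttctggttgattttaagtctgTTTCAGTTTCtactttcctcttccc
Trim30a, chr7:104465205-104465244: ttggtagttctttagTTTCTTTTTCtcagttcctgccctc
The Isg15 window lies before a gene on the minus strand and holds 3 overlapping matches, 78 to 66 bases before the gene start. Ifit3 and Ifit3b show the same 74 bases, so their promoter windows cannot be told apart by sequence. How reads that match both of these near-identical copies were counted is not given, and the levels of both may be too low. Trim30a holds a match 36 bases before its start. No promoter entry was found for Dhx58, Oas2, Mx1, Mx2, Usp18, Rtp4, Zbp1, Parp14, Parp9, Ifi27, Ifi27l2a and Ly6e.

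The libraries held 9215 to 18559 barcodes and 42592323 to 110576113 unique molecular identifiers (UMIs, each standing for 1 captured RNA molecule). Cell classes were rebuilt by clustering and named from fixed markers, so tumour, T, B, myeloid and club stand for cells like these types. Tumour cells numbered 3054 (RPR2), 6593 (CRPR2), 13310 (preSC_WT) and 13465 (the library labelled preSC_CracdKO), and all 16 neuroendocrine markers had UMIs in each. Levels are UMIs of a gene in every 1000000 UMIs of a class (CPM), and a member was called higher or lower at a ratio of at least 2 with a mean of at least 5 CPM over both libraries. Cracd (listed as C530008M17Rik) had 31.7 CPM in tumour cells of RPR2 against 23.7 in those of CRPR2. It had 6.46 CPM in preSC_WT and 84.4 CPM in the library labelled preSC_CracdKO, so the library labelled as knockout had more of this RNA. A 3-prime tag outside the deleted part cannot check a deletion, so these counts do not decide whether the labels hold. The lung mice also differed in sex-linked RNA, with Xist at 1574 and 0.225 CPM and Ddx3y at 0 and 53.8 CPM in RPR2 and CRPR2 tumour cells, so sex and genotype cannot be told apart. Between any 2 libraries, 35 to 79 cell barcodes were shared.

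In lung tumour cells the interferon-stimulated genes stood lower in CRPR2 than in RPR2, and the size of the difference depended on the member. Of the 35 listed members, 7 were called lower and 0 higher, where 0.945% and 0.736% of the 11002 genes tested were called lower and higher. The members called lower were Isg15, Rsad2, Oasl1, Oas2, Oasl2, Rtp4 and Ly6e. The median log2 ratio over all 35 members was -0.40 (with 1 CPM added) against -0.03 over the genes tested, and 32 members lay below 0 and 3 above. Summed over members, 3641 CPM in RPR2 stood against 2590 CPM in CRPR2, a ratio of 0.711 (0.704 to 0.719). A mean of 5 CPM was met by 31 members, of which Oas2, called lower, and Oas1a lay under 5 CPM in CRPR2, and missed by Ifit3, Ifit3b, Ifi44 and Trim30a. In bulk sums like these, fewer expressing cells and less RNA per cell cannot be told apart, and the spread between cells is described further on.

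The antiviral effectors held the members that differed most. Rsad2, which encodes viperin, a radical enzyme that makes a chain-terminating nucleotide, stood at 107 CPM (103 to 111) in RPR2 and 30.5 CPM (28.4 to 32.6) in CRPR2, or 3.51-fold lower (3.24 to 3.81). Isg15, a ubiquitin-like protein that is attached to other proteins, stood at 110.2 CPM (106 to 115) in RPR2 and 35.9 CPM (33.6 to 38.2) in CRPR2, or 3.07-fold lower (2.85 to 3.32). Cmpk2, a mitochondrial nucleotide kinase encoded beside Rsad2, stood at 59.2 CPM (56.1 to 62.5) in RPR2 and 48.3 CPM (45.7 to 51) in CRPR2, a ratio of 0.815 (0.755 to 0.881). The neighbours Rsad2 and Cmpk2 thus differed between the libraries by unequal amounts. Other members around Isg15 conjugation were not called. Usp18, which removes Isg15 and damps the receptor, stood at 40.6 CPM (38 to 43.3) in RPR2 and 21.4 CPM (19.7 to 23.3) in CRPR2, a ratio of 0.528 (0.475 to 0.587). Herc6, the mouse ligase for Isg15, had 34.4 and 22.5 CPM and Trim25, a ubiquitin ligase of RNA sensing, 37.6 and 32.2 CPM. Trim30a, a ubiquitin ligase of the tripartite motif family, had 11 UMIs in RPR2 and 5 in CRPR2, or 0.492 and 0.187 CPM.

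In the OAS family, enzymes that sense double-stranded RNA and activate RNase L, with related OAS-like proteins, 3 of 5 members were called lower. Oasl1 stood at 24.2 CPM (22.2 to 26.3) in RPR2 and 7.46 CPM (6.46 to 8.57) in CRPR2, or 3.25-fold lower (2.76 to 3.84). For Oasl2 the levels were 22.5 and 10.3 CPM, or 2.18-fold lower (1.88 to 2.54). Oas2 had 8.77 and 3.22 CPM, or 2.72-fold lower (2.10 to 3.55). The remaining Oas1a and Oas3 lay in the same direction and missed the rule. Oas1a stood at 7.39 and 4.38 CPM, a ratio of 0.593 (0.464 to 0.757), and Oas3 at 10.7 and 5.66 CPM, a ratio of 0.531 (0.430 to 0.654).

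The IFIT genes, which bind viral RNA ends, and the RNA and DNA sensors were closer between the libraries, and 0 of these 8 members were called. Ifit1 stood at 77.4 CPM (73.8 to 81.1) in RPR2 and 53.9 CPM (51.1 to 56.7) in CRPR2, a ratio of 0.696 (0.649 to 0.747). For Ifit2 the RPR2 and CRPR2 levels were 15.8 and 14.6 CPM, whereas Ifit3 stood at 2.69 and 1.91 CPM and its copy Ifit3b at 0.582 and 0.450 CPM. Among the sensors, Ifih1, which encodes the RNA sensor MDA5, stood at 39.1 and 30.8 CPM. Zbp1, a sensor of Z-form nucleic acids, stood at 46.7 and 37.3 CPM, and Ddx58, which encodes RIG-I, at 13.3 and 12.8 CPM. Dhx58, which encodes LGP2, stood at 9.22 and 5.58 CPM, a ratio of 0.605 (0.487 to 0.751).

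Of the 3 membrane members, Ly6e was called. Ly6e, a lipid-anchored surface protein that restricts coronavirus entry, stood at 263 CPM (256 to 269) in RPR2 and 121 CPM (116 to 125) in CRPR2, or 2.18-fold lower (2.08 to 2.27). Ifitm3, which blocks fusion of viruses in endosomes, stood at 846 and 682 CPM, a ratio of 0.807 (0.790 to 0.823). Bst2, or tetherin, which holds budding viruses at the cell surface, stood at 34.3 and 23.5 CPM, a ratio of 0.686 (0.616 to 0.763). Ifi27l2a and Ifi27 belong to a family of small hydrophobic interferon-induced proteins. Ifi27l2a stood at 1125 and 727 CPM, a ratio of 0.646 (0.634 to 0.659), and Ifi27 at 388 and 394 CPM, a ratio of 1.02 (0.987 to 1.05). Ifi27 is with Samd9l and Parp14 among the 3 members whose log2 ratio lay above 0.

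The rest of the members lay between. Rtp4, a transporter-like protein that dampens flavivirus replication, stood at 47.3 CPM (44.5 to 50.3) in RPR2 and 21.3 CPM (19.6 to 23.1) in CRPR2, or 2.22-fold lower (2.0 to 2.46). Irf7, the factor that amplifies interferon production, stood at 29.7 and 18.4 CPM, a ratio of 0.618 (0.548 to 0.695). Xaf1, a pro-apoptotic protein, stood at 28.5 and 21.4 CPM and Ifi35 at 63.9 and 56 CPM. Eif2ak2, which encodes the kinase PKR that stops translation, stood at 47 and 43 CPM. Samd9l, a brake on translation and growth, stood at 43.1 and 52 CPM, slightly above in CRPR2. Of the ADP-ribosylation group, Parp9 had 16.3 and 14.1 CPM, Dtx3l, its partner ligase, 21 and 17.5 CPM and Parp14 15.8 and 17.2 CPM. Parp9 and Dtx3l overlap on opposite strands, and the strand of counting is not given in the sources used here. Ifi44 had 4.61 and 1.80 CPM.

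Markers of other cells within the tumour class moved between the lung libraries as well. The 12 T-cell markers summed to 84.5 CPM in RPR2 and 15.4 CPM in CRPR2, and the 7 club markers to 124 and 704 CPM, with a UMI for every marker on both lists. The 5 erythroid markers summed to 1.61 CPM in RPR2 and 602 CPM in CRPR2, with none at 0, and the 7 neutrophil markers to 2.69 and 15.9 CPM, with 2 and 0 at 0. Club cells carried more of many members than tumour cells did (below). The part of this foreign RNA in the tumour-cell values was not tested.

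**Figure D1:**
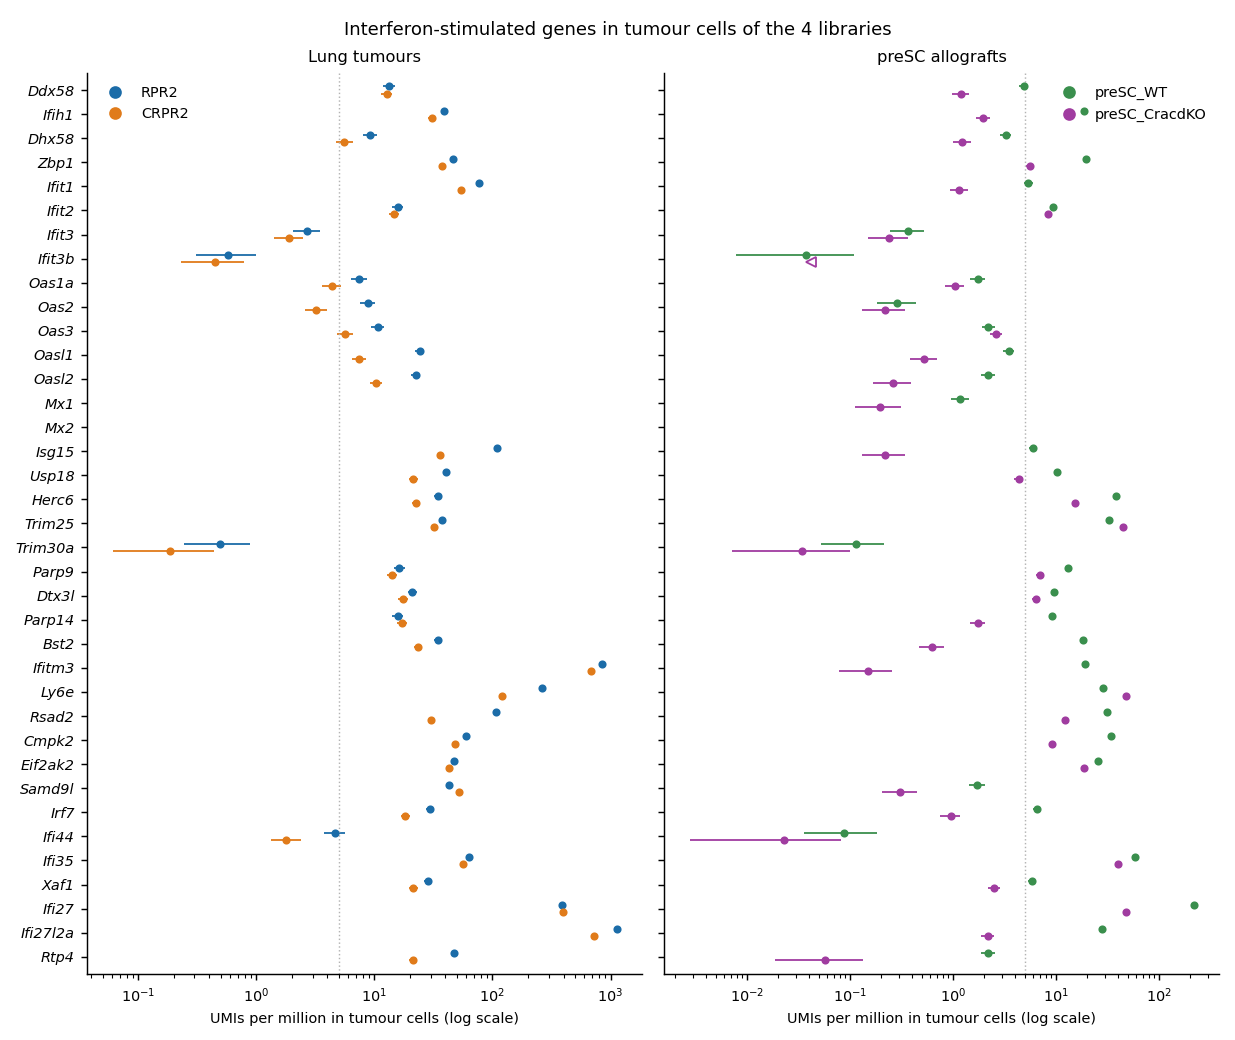
Level of each member in tumour cells, in CPM on a log axis, for the lung pair (left) and the allograft pair (right), with exact Poisson intervals; an open triangle marks the upper limit of a count of 0, and the dotted line is at 5 CPM. In the lung pair Isg15, Rsad2, Oasl1, Oas2, Oasl2, Rtp4 and Ly6e lie clearly apart and Ifi27 overlaps; in the allograft pair Ifitm3 and Bst2 lie farthest apart among members above the dotted line.

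Tumour cells were unequal in how many members they carried. After thinning each cell to 1000 UMIs, which puts all cells at the same depth, 8.36% (exact Clopper-Pearson interval 7.39 to 9.41) of 2967 RPR2 cells had UMIs of at least 5 distinct members, and 3.18% (2.76 to 3.65) of 6192 CRPR2 cells did. The mean was 2.11 distinct members per cell in RPR2 and 1.71 in CRPR2, and the highest cell had 17 and 13. Cells with no member UMI made up 16.2% and 18.5%. The libraries thus differed less in the share of cells without any member than in the share with many. Without thinning, the shares with at least 5 were 66.5% and 38.9%, at a median of 6057.5 UMIs per tumour cell in RPR2 and 3368 in CRPR2. Thinning left out 87 RPR2 cells and 401 CRPR2 cells with too few UMIs.

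**Figure D2:**
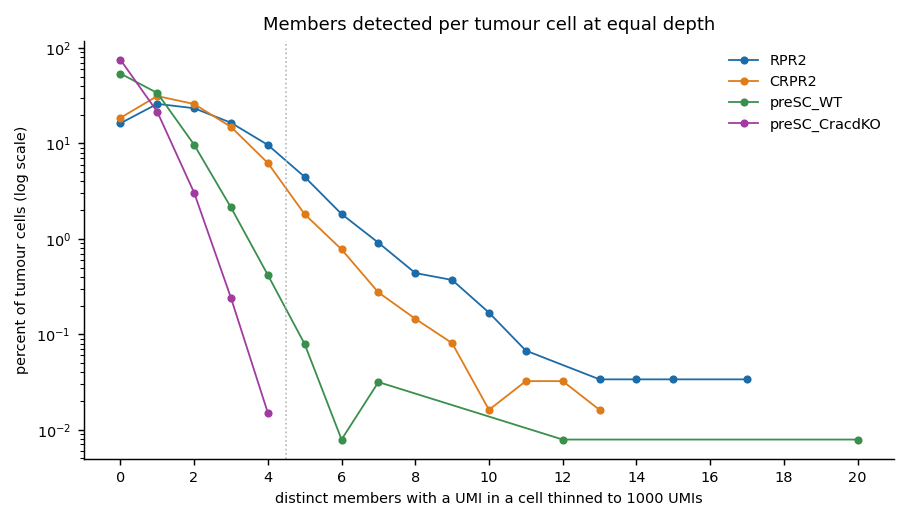
Percent of thinned tumour cells (log axis) by the number of distinct members with a UMI, 1 line per library; the dotted line separates cells with at least 5. The RPR2 line runs above the CRPR2 line from 3 to 11 members, preSC_WT falls off early with few cells out to 20 members, and preSC_CracdKO ends at 4.

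Members differed in how evenly they were spread over RPR2 tumour cells. Overdispersion, the variance above the mean divided by the squared mean of the thinned counts, is near 0 when UMIs fall on cells at random. It was 0.212 for Ifi27 and 0.393 for Ifi35, whereas it was 15.1 for Isg15, 17.9 for Rsad2, 10.9 for Ifit1 and 29.3 for Oasl1. Ifitm3 and Ly6e lay low with 1.66 and 1.67, and Ifi27l2a between with 3.33. The order was alike in CRPR2, with 0.276 for Ifi27, 0.0203 for Ifi35, 35.5 for Isg15 and 52.6 for Rsad2. Ifi27 and Ifi35 were thus spread evenly while Isg15, Rsad2 and Oasl1 were concentrated in few cells. In the thinned cells, Isg15 had a UMI in 5.66% of RPR2 and 2.21% of CRPR2 cells, Rsad2 in 5.33% and 1.79%, and Ifit1 in 5.33% and 3.70%. For Ifi27 the shares were 32.0% and 32.1%, and for Ifitm3 41.6% and 36.8%. No lung class should lack interferon-stimulated genes entirely, so none could serve as a blank for free RNA. Trim30a had 0 UMIs in the thinned tumour cells of either lung library. That sets no limit for members with more RNA in the other classes, and the part of free RNA was not tested.

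Members with a high overdispersion tended to occur together. Among RPR2 tumour cells with an Rsad2 UMI, 30.4% (23.3 to 38.2; 48 of 158) also had an Isg15 UMI, against 4.27% (3.55 to 5.09) of the cells without Rsad2. In CRPR2 the shares were 27.9% (19.8 to 37.2; 31 of 111) and 1.74% (1.43 to 2.10). For Ifi27 the shares lay close together, at 29.7% (22.7 to 37.5) of RPR2 cells with Rsad2 and 32.1% (30.4 to 33.8) of those without, and at 39.6% (30.5 to 49.4) and 32.0% (30.8 to 33.1) in CRPR2. Usp18 was in between, since 6.33% (3.08 to 11.3) of RPR2 cells with Rsad2 had it against 3.38% (2.74 to 4.12) without. Ifitm3, whose overdispersion was low, also went with Rsad2. It was in 53.2% (45.1 to 61.1) of RPR2 cells with Rsad2 against 40.9% (39.1 to 42.8) without. In CRPR2 the shares were 53.2% (43.4 to 62.7) and 36.5% (35.3 to 37.7). Occurring together was thus not confined to members with a high overdispersion. In preSC_WT, 3.44% (1.73 to 6.07; 11 of 320) of tumour cells with Rsad2 had Isg15, against 0.421% (0.314 to 0.551) of those without.

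Some of the unevenness lay in a small tumour cluster, numbered 18, with 6 members among its 10 leading genes. Clusters were drawn from all genes, so the levels inside it describe the cluster and carry no test. It held 158 RPR2 cells (5.17% of tumour cells) and 55 CRPR2 cells (0.834%). In RPR2 it contained 65.0% of the Ifit3 UMIs of tumour cells, 49.4% of Rsad2, 44.8% of Isg15, 42.3% of Oasl1 and 37.4% of Ifit1. The same cluster contained 5.24% of Ifi27, 6.06% of Trim25, 6.80% of Ifi35 and 7.67% of Ly6e, close to its share of cells. Inside it, Isg15 stood at 883 CPM in RPR2 and 1116 CPM in CRPR2, and outside at 64.4 and 23.3 CPM. Rsad2 stood at 944 and 1145 CPM inside and at 57.3 and 17.5 CPM outside. Ly6e stood at 360.0 and 271 CPM inside and at 257 and 119 CPM outside. Of the thinned cluster cells, 47.8% (75 of 157) in RPR2 and 61.1% (33 of 54) in CRPR2 had at least 5 distinct members, while elsewhere 6.16% (173 of 2810) and 2.67% (164 of 6138) did.

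**Figure D3:**
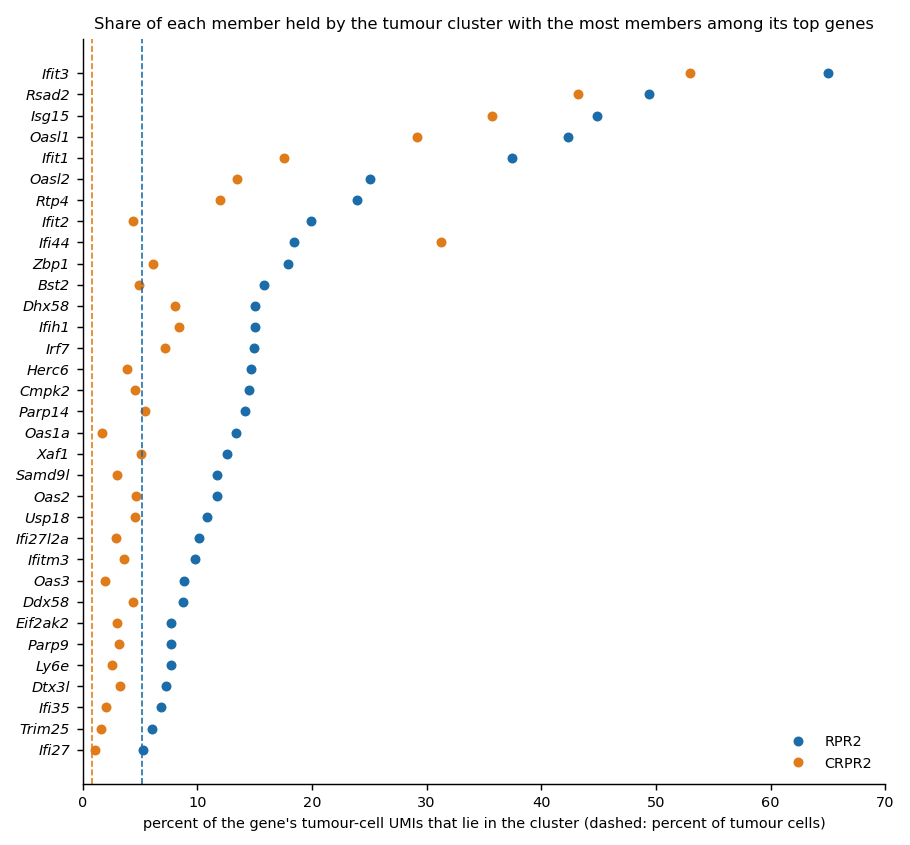
Percent of each member's tumour-cell UMIs that lie in lung tumour cluster 18, for RPR2 and CRPR2; the dashed lines mark the cluster's share of tumour cells, 5.17% and 0.834%. Ifit3, Rsad2, Isg15 and Oasl1 lie far to the right of the lines, and Ifi27 lies on them.

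The difference between the lung libraries was present outside that cluster too. Without it, the CRPR2 to RPR2 ratio was 0.362 for Isg15, 0.305 for Rsad2, 0.361 for Oasl1, 0.506 for Oasl2, 0.498 for Rtp4, 0.379 for Oas2 and 0.463 for Ly6e, so that all but Oasl2 of the 7 were still called lower. Giving each of 8 tumour clusters the same weight in both libraries brought Isg15 to 0.704, Rsad2 to 0.696, Oasl1 to 0.566, Oasl2 to 0.627 and Rtp4 to 0.608, so that 2 members, Oas2 at 0.407 and Ly6e at 0.485, were still called lower. The size of the Isg15 and Rsad2 difference therefore depended on how the clusters were weighted. The 8 clusters include number 18 (158 RPR2 and 55 CRPR2 cells), with Isg15 at 883 and 1116 CPM, and leave out number 14 (14 and 360 cells). Equal weighting gave the few CRPR2 cells of cluster 18 a larger part than they had in the pooled sums. How much of the shift came from cluster 18 was not tested. Among the other clusters, number 8 (369 RPR2 and 480 CRPR2 cells) had Isg15 at 162 and 62.7 CPM and Rsad2 at 158 and 45.7 CPM. Cluster 2 (701 and 1805 cells) had Isg15 at 33.6 and 13.7 CPM but Ifit1 at 63.5 and 68.8 CPM.

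Club cells, secretory cells of the airway lining, had 281 cells in RPR2 and 1162 in CRPR2, and 34 of the 35 listed members lay lower in CRPR2. Of these, 5 were called lower and 0 higher, where 3.43% and 0.974% of the 10674 genes tested were. The median log2 ratio was -0.55 against -0.16 over the genes tested, and the summed level was 5100 CPM in RPR2 and 3491 CPM in CRPR2. Isg15 stood at 446 and 139.8 CPM, or 3.19-fold lower (2.93 to 3.46). Ifit1 stood at 123 and 52.1 CPM, or 2.36-fold lower (2.03 to 2.73), and Ifi27l2a at 619 and 272 CPM, or 2.28-fold lower (2.13 to 2.43). Rsad2 stood at 42.2 and 17.9 CPM, or 2.36-fold lower (1.82 to 3.04), and its neighbour Cmpk2 at 33.4 and 15.9 CPM, or 2.11-fold lower (1.59 to 2.79). Parp9 was the member above 0, at 25.7 and 27.3 CPM. With TMM scaling, which sets a common centre for most genes and moved all log2 ratios by 0.19, the median was -0.36 and 3 members were called lower, and with doublets kept 9 were. No share over all genes tested is given for these alternatives.

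B cells numbered 393 and 761, and few UMIs stood behind most members. Here 7 of the 35 listed members were called lower and 0 higher, where 5.94% and 3.92% of the 8413 genes tested were. The median log2 ratio was -0.53 against -0.07, and the summed level was 2848 and 2328 CPM. Isg15 stood at 36.6 and 10.4 CPM, or 3.53-fold lower (1.81 to 7.42), and Trim30a at 97.2 and 43.1 CPM, or 2.25-fold lower (1.59 to 3.23). Ifitm3 stood at 57.7 and 25 CPM, or 2.31-fold lower (1.46 to 3.73), but with doublets kept its ratio turned to 1.57. The intervals of Oasl1 and Usp18, also called lower, included no difference, and Ifi44 and Oasl2 had 3 and 2 UMIs in CRPR2, at ratios of 0.158 (0.0297 to 0.547) and 0.199 (0.0210 to 0.963). Macrophage markers in B cells summed to 704 CPM in RPR2 and 1257 CPM in CRPR2, with 5 and 3 of 9 markers at 0, and club markers to 2505 and 1400 CPM. The 5 erythroid markers summed to 7.70 and 1231 CPM there, with 3 and 0 at 0, and the 16 tumour markers to 127 and 509 CPM, with 1 and 0 at 0. The part of these markers' cells was not tested.

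Myeloid cells, which pool macrophages, monocytes and neutrophils, numbered 277 and 474. Of the 35 listed members, 5 were called lower and 0 higher, where 5.01% and 8.73% of the 9728 genes tested were. The median log2 ratio was -0.46 against 0.04, and the summed level 6119 and 3768 CPM. Ifi27l2a stood at 1209 and 539 CPM, or 2.24-fold lower (2.05 to 2.46), and Oas2 at 13.5 and 2.81 CPM, or 4.80-fold lower (1.53 to 19.9). Oas1a stood at 18.9 and 6.33 CPM, or 2.99-fold lower (1.31 to 7.41), and Ifit1 at 14.4 and 4.93 CPM, or 2.93-fold lower (1.14 to 8.41). Oasl1, the fifth, had an interval that included no difference. The makeup of the class differed, with 74 macrophages, 172 monocytes and 31 neutrophils in RPR2 against 241, 156 and 77 in CRPR2. Within monocytes the median was -0.22 and within macrophages -0.35, with 1 member called higher and 4 lower in monocytes and 3 higher and 4 lower in macrophages. For monocytes and macrophages alone no share or median over all genes tested is given. Their counts therefore do not show whether members differed from other genes.

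T cells gave the opposite direction when all were pooled, and the clusters they came from differed. Of the 35 listed members, 6 were called higher in CRPR2 and 1 lower, where 7.5% and 22.0% of the 9078 genes tested were, and the median log2 ratio was 0.53 against -0.40. With TMM scaling, which moved the log2 ratios of all T-cell genes by 0.30 and the members' median to 0.80, 10 were called higher and 0 lower. The share over all genes tested is not given for this scaling. For Ifit1 the levels were 5.34 and 19.6 CPM, a ratio of 3.67 (2.35 to 5.63), and for Ifi27l2a 215 and 509 CPM, a ratio of 2.37 (2.20 to 2.56). Parp14, Xaf1, Oas3 and Ifit3 were also called higher, at ratios of 2.53 (2.01 to 3.16), 2.31 (1.76 to 3.01), 3.20 (1.64 to 5.98) and 2.16 (1.24 to 3.64). Trim25 was called lower, at 33.9 and 14 CPM, or 2.42-fold lower (1.62 to 3.79). Of the 4703 RPR2 T cells, 2705 lay in cluster 0 and 596 in cluster 11, in which 88.8% and 96.1% of cells had a UMI of the thymocyte genes Rag1, Dntt or Ptcra, and CRPR2 had 0 cells in both. Cluster 0 had 1.39 CPM of Ifit1 and 27.05 CPM of Ifi27l2a. The 5 erythroid markers in T cells summed to 848 CPM in RPR2 and 53.7 CPM in CRPR2, with 0 and 1 at 0, and their part was not tested.

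Within T cluster 3, which both libraries shared (586 RPR2 and 877 CRPR2 cells; 1.09% of cells with a thymocyte-gene UMI), the members lay lower in CRPR2. There 4 of the 35 listed members were called lower and 0 higher, where 4.0% and 1.89% of 8609 genes tested were, and the median log2 ratio was -0.38 against -0.11. For Ifit3 the RPR2 level was 31.2 CPM and the CRPR2 level 11.3 CPM, or 2.77-fold lower. Isg15 stood at 108 and 53.5 CPM, or 2.02-fold lower, while Ifi44 and Oasl2 were called lower from 21 and 10 UMIs and from 16 and 7 UMIs, with intervals of the ratio that included no difference. Ifi27l2a had 763 and 511 CPM there, and Ifit1 had 24.1 and 19.7 CPM, both below 0 here and called higher in the pooled class. The comparison within the shared cluster was chosen after the clusters were seen.

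**Figure D4:**
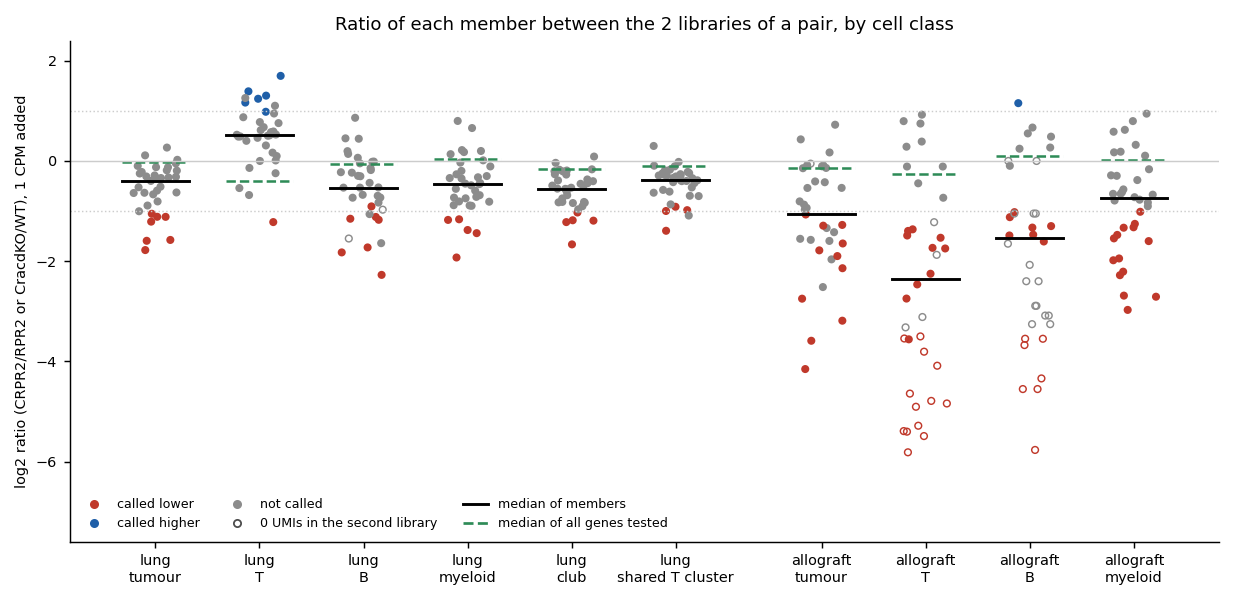
log2 ratio of each member (points; 1 CPM added) between the libraries of a pair, by cell class, with the median of the members (black line) and of all genes tested (green dashed line); open points have 0 UMIs in the second library, and dotted lines mark a ratio of 2. In the lung pair the member median lies below the gene median in tumour, B, myeloid and club cells and in the shared T cluster, and above it in pooled T cells; the allograft T and B classes consist largely of open points.

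Across the 5 lung classes, which share the same 2 libraries and are therefore not independent, Isg15 and Oasl1 were called lower in 3 classes, and Ifit1, Oas2, Oasl2, Rsad2 and Ifi27l2a in 2. A further 9 members were called lower in 1 class, and 0 in 4 or 5 classes. The other 21 of the 37, which include Mx1 and Mx2 that this pair does not list, were called lower in 0. The Oasl1 calls in B and myeloid cells had intervals that included no difference. The share of all genes tested that were called lower in as many classes is not given, so these counts have no background.

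The members also had their own preferred cell classes, and for many the highest class was the same in both lung libraries. In both, 12 members stood highest in club cells, 8 in myeloid cells, 3 in tumour cells and 3 in B cells, and 0 in T cells. The class with the lowest level in both libraries was B cells for 9 members, tumour cells for 8 and T cells for 4, and myeloid or club cells for 0. These ranks cover the pooled tumour, T, B, myeloid and club classes only. They follow the levels alone, whether or not the levels of 2 classes overlap within counting error. In the values that follow, RPR2 comes first and CRPR2 second, all in CPM. The T-cell values and ranks are those of the pooled class, most of which in RPR2 lay in thymocyte clusters that CRPR2 lacked. Isg15 stood at 446 and 139.8 CPM in club cells, 149 and 101 in myeloid cells, 78.6 and 53.7 in T cells and 36.6 and 10.4 in B cells, highest in club cells. Usp18, which stood highest in tumour cells, had 20.03 and 10.9 CPM in club cells, 11.7 and 13.4 in myeloid cells, 5.68 and 8.95 in T cells and 8.66 and 3.45 in B cells. Rsad2 had 42.2 and 17.9 CPM in club cells, 26.1 and 20.4 in myeloid cells, 6.11 and 6.16 in T cells and 1.92 (2 UMIs) and 0 UMIs (up to 2.59 CPM) in B cells, below its tumour-cell level in both libraries. Within the myeloid class, neutrophils (31 and 77 cells) had Rsad2 at 213 CPM (16 UMIs) and 28.6 CPM (3 UMIs), above the tumour-cell level in RPR2 only. Isg15 stood at 559 and 209 CPM in neutrophils (42 and 22 UMIs), above its club level in both libraries. Cmpk2, which like Rsad2 stood highest in tumour cells of both libraries, had 33.4 and 15.9 CPM in club cells, 13.5 and 7.74 in myeloid cells, 2.80 and 4.48 in T cells and 4.81 and 6.90 in B cells. Herc6 and Trim25 were more even. Herc6 stood at 35.5 and 21.7 CPM in club cells, 16.2 and 19 in myeloid cells, 22.4 and 22.4 in T cells and 15.4 and 12.9 in B cells. Trim25 stood at 34.1 and 30.1 CPM in club cells, 63.9 and 55.6 in myeloid cells, 33.9 and 14 in T cells and 40.4 and 42.3 in B cells. Trim30a was the opposite of Rsad2 and scarcely seen in tumour cells, at 35.9 and 26.1 CPM in club cells, 104 and 69 in myeloid cells, 33.2 and 61.6 in T cells and 97.2 and 43.1 in B cells. Its tumour-cell level lay 67.3-fold below the next lowest class in RPR2 and 139-fold in CRPR2.

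Among the sensors, Ifih1 and Ddx58 stood highest in club cells of both libraries and Dhx58 in myeloid cells. Ifih1 stood at 47.1 and 33.2 CPM in club cells, 25.2 and 24.6 in myeloid cells, 3.90 and 7.28 in T cells and 2.89 (3 UMIs) and 3.45 in B cells. Dhx58 had 13.7 and 10.4 CPM in club cells, 22.5 and 16.2 in myeloid cells, 1.53 and 5.04 in T cells and 1.92 (2 UMIs) and 4.31 in B cells. Zbp1 stood at 40.4 and 27.6 CPM in club cells, 85.5 and 45.7 in myeloid cells, 38.1 and 53.7 in T cells and 33.7 and 20.7 in B cells, with its highest value in myeloid cells of RPR2. Ddx58 stood at 43.6 and 36.1 CPM in club cells, 19.8 and 18.3 in myeloid cells, 16.8 and 23.5 in T cells and 27.9 and 19 in B cells. All 4 IFIT members were scarce in pooled T and B cells relative to club cells in RPR2. The RPR2 T clusters were unequal, with Ifit1 at 24.1 and Ifit3 at 31.2 CPM in cluster 3 against 1.39 and 0.279 CPM in thymocyte cluster 0. Ifit1 stood at 123 and 52.1 CPM in club cells, 14.4 and 4.93 in myeloid cells, 5.34 and 19.6 in T cells and 4.81 and 2.59 (3 UMIs) in B cells. Ifit2 stood at 41.5 and 27.9 CPM in club cells, 9.0 and 14.8 in myeloid cells, 9.92 and 13.4 in T cells and 7.70 and 6.04 in B cells. Ifit3 stood at 106 and 53.9 CPM in club cells, 6.30 and 4.93 in myeloid cells, 5.17 and 11.2 in T cells and 22.1 and 12.9 in B cells, so its club level lay far above its tumour level of 2.69 CPM in RPR2. For its copy Ifit3b the values were 16.9 and 13.8 CPM in club cells, 1.80 (2 UMIs) and 0.704 (1 UMI) in myeloid cells, 1.53 and 2.80 in T cells and 2.89 (3 UMIs) and 0.863 (1 UMI) in B cells.

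OAS members stood highest in club or myeloid cells, with the exception of Oasl1 in RPR2, which stood highest in tumour cells. Oas1a had 11.2 and 10.9 CPM in club cells, 18.9 and 6.33 in myeloid cells, 0.509 and 2.24 in T cells and 4.81 and 0.863 (1 UMI) in B cells. Oas2 had 15.5 and 8.34 CPM in club cells, 13.5 and 2.81 in myeloid cells, 0.678 and 1.68 (3 UMIs) in T cells and 0.962 (1 UMI) and 0 UMIs (up to 2.59 CPM) in B cells. Oas3 had 15.5 and 8.20 CPM in club cells, 19.8 and 12 in myeloid cells, 2.80 and 8.95 in T cells and 3.85 and 1.73 (2 UMIs) in B cells. Oasl1 and Oasl2 are the OAS-like members. Oasl1 had 16.5 and 9.43 CPM in club cells, 10.8 and 4.22 in myeloid cells, 0.848 and 0.560 (1 UMI) in T cells and 10.6 and 5.18 in B cells. Oasl2 had 69.9 and 38.8 CPM in club cells, 31.5 and 26 in myeloid cells, 2.97 and 3.92 in T cells and 8.66 and 1.73 (2 UMIs) in B cells.

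The membrane members had UMIs in all classes, with different leading classes. Bst2 stood at 214 and 145 CPM in club cells, 226 and 228 in myeloid cells, 86.2 and 96.8 in T cells and 66.4 and 45.7 in B cells, highest in myeloid cells. Ifitm3 stood at 935 and 812 CPM in club cells, 2629 and 1568 in myeloid cells, 28.8 and 56.5 in T cells and 57.7 and 25 in B cells, and its lymphocyte levels lay far below its myeloid and epithelial levels. Ly6e, which is known as a thymocyte and lymphocyte surface marker, stood at 948 and 819.9 CPM in club cells, 794 and 453 in myeloid cells, 1033 and 644 in T cells and 1348 and 1305 in B cells. Ifi27 stood at 499.8 and 364 CPM in club cells, 87.3 and 153 in myeloid cells, 140.1 and 150.0 in T cells and 102 and 87.2 in B cells. Ifi27l2a stood at 619 and 272 CPM in club cells, 1209 and 539 in myeloid cells, 215 and 509 in T cells and 504 and 303 in B cells.

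The remaining members had different leading classes. Samd9l stood at 126 and 95.1 CPM in club cells, 39.6 and 43.6 in myeloid cells, 33.2 and 57.6 in T cells and 166 and 146 in B cells, highest in B cells. Parp14 stood at 69.9 and 62.2 CPM in club cells, 67.5 and 38 in myeloid cells, 24.3 and 61.6 in T cells and 85.6 and 63 in B cells, where the B and club levels overlap within counting error in CRPR2. Dtx3l stood at 41.8 and 31.7 CPM in club cells, 41.4 and 30.3 in myeloid cells, 26.8 and 38.6 in T cells and 28.9 and 23.3 in B cells. Irf7, Eif2ak2 and Rtp4 stood highest in club cells of both libraries. Irf7 had 97 and 51.4 CPM in club cells, 84.6 and 45 in myeloid cells, 16.3 and 23.5 in T cells and 27.9 and 19 in B cells. Eif2ak2 had 63.3 and 44.4 CPM in club cells, 33.3 and 23.9 in myeloid cells, 11.2 and 10.1 in T cells and 10.6 and 9.49 in B cells. Rtp4 had 79.1 and 53 CPM in club cells, 27 and 19 in myeloid cells, 10.6 and 15.7 in T cells and 2.89 (3 UMIs) and 4.31 in B cells. Myeloid cells were highest for Ifi35 and Ifi44, although the Ifi35 lead was small, over club cells in RPR2 and over tumour cells in CRPR2. In CRPR2 the lead of club over tumour cells was small for Eif2ak2 too. Ifi35 had 71.3 and 46.5 CPM in club cells, 72.9 and 57 in myeloid cells, 32.4 and 45.9 in T cells and 47.2 and 46.6 in B cells. Ifi44 had 52.4 and 29.1 CPM in club cells, 65.7 and 35.2 in myeloid cells, 3.31 and 5.60 in T cells and 16.4 and 2.59 (3 UMIs) in B cells. Xaf1 had 51.3 and 44.8 CPM in club cells, 54.9 and 43.6 in myeloid cells, 18.7 and 43.1 in T cells and 28.9 and 31.9 in B cells.

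**Figure D5:**
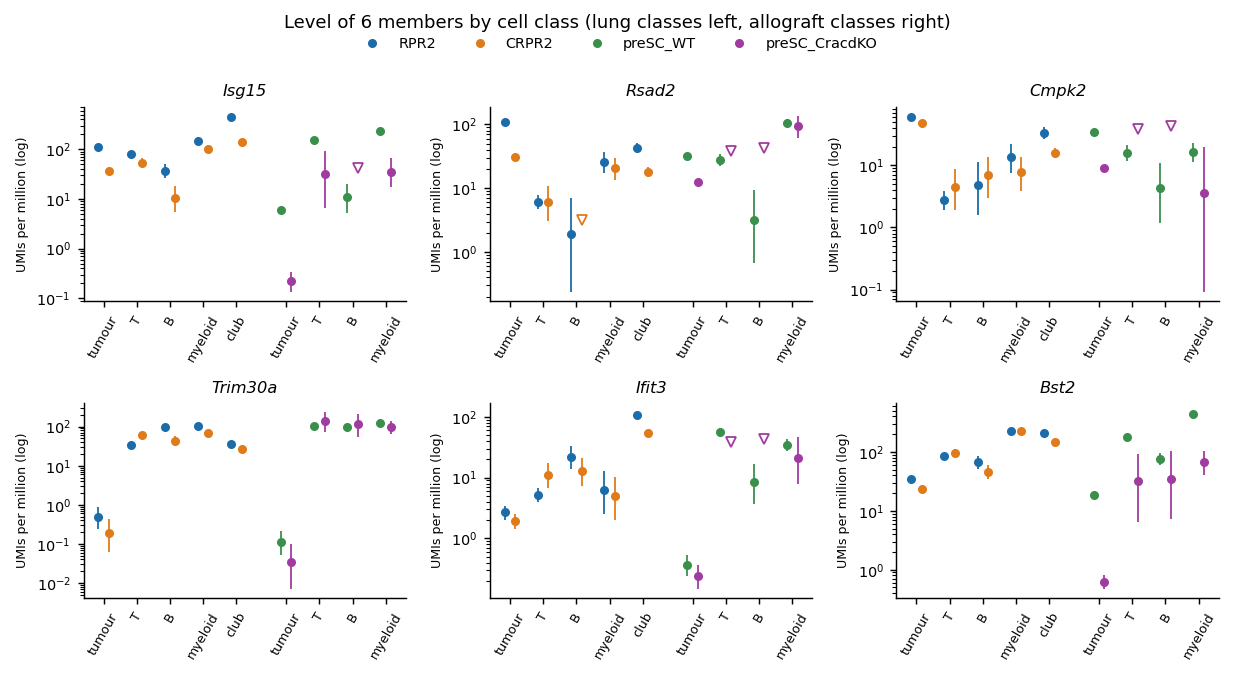
Levels of Isg15, Rsad2, Cmpk2, Trim30a, Ifit3 and Bst2 by cell class, in CPM on log axes, with exact Poisson intervals; open triangles are upper limits of a count of 0. Trim30a and Ifit3 are lowest in tumour cells of RPR2, CRPR2 and preSC_WT, whereas Rsad2 and Cmpk2 stand highest in tumour cells among the pooled tumour, T, B, myeloid and club classes of the lung.

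Cells of the other lung classes also differed in how many members they carried at 1000 UMIs. The share with at least 5 distinct members was 23.6% of 271 RPR2 club cells and 14.1% of 1115 CRPR2 club cells, 12.5% and 9.94% of myeloid cells, 4.40% and 2.03% of B cells and 1.73% and 3.45% of T cells. Club cells thus exceeded tumour cells in both libraries. In T cells, whose clusters were unequal between the libraries, the order was the reverse.

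In allograft tumour cells most members stood lower in the library labelled preSC_CracdKO than in preSC_WT. Of the 36 listed members, 11 were called lower and 0 higher, where 14.8% and 8.02% of the 11195 genes tested were. The summed level was 673 CPM in preSC_WT and 289 CPM in preSC_CracdKO, 2.33-fold lower. The median log2 ratio was -1.06 against -0.13, and 33 members lay below 0 and 3 above. A mean of 5 CPM was met by 18 members, and 6 of the 11 called lower, Ifih1, Usp18, Ifitm3, Bst2, Ifi27l2a and Parp14, lay under 5 CPM in preSC_CracdKO and met it through their preSC_WT level. Nearly all tumour clusters of this pair were filled by 1 library, so cluster, library and label cannot be told apart. The lung and allograft pairs were counted against different annotations and are not compared gene by gene.

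Of the membrane members above the floor, Ifitm3 and Bst2 were called lower and Ly6e was not. Ifitm3 stood at 19.5 CPM (18.5 to 20.4) in preSC_WT and 0.149 CPM (0.0793 to 0.255) in preSC_CracdKO, from 1541 and 13 UMIs, or 131-fold lower (76.1 to 246). Bst2 stood at 18.6 CPM (17.7 to 19.6) and 0.630 CPM (0.475 to 0.820), or 29.5-fold lower (22.6 to 39.4). Ly6e stood at 28.7 and 48.1 CPM, a ratio of 1.67 (1.59 to 1.76) with preSC_CracdKO the higher. Both members of the small hydrophobic family were called lower. Ifi27 stood at 218 and 48.7 CPM, or 4.48-fold lower (4.33 to 4.63), and Ifi27l2a at 28.1 and 2.19 CPM, or 12.8-fold lower (11.1 to 14.9).

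Of the sensors, Ifih1 stood at 18.9 and 1.96 CPM, or 9.64-fold lower (8.23 to 11.4), and Zbp1 at 19.8 and 5.63 CPM, or 3.51-fold lower (3.17 to 3.89). Ddx58 missed the floor at 4.87 and 1.19 CPM. Among the effectors, Rsad2 stood at 31.6 and 12.3 CPM, or 2.57-fold lower (2.39 to 2.76), and Cmpk2 at 34.2 and 9.21 CPM, or 3.71-fold lower (3.43 to 4.02). Isg15 was scarce in both, at 5.97 and 0.218 CPM (473 and 19 UMIs), and missed the floor with a ratio of 0.0365 (0.0218 to 0.0576). Its protease Usp18 and its ligase Herc6 met the floor. Usp18 stood at 10.3 and 4.40 CPM, or 2.35-fold lower (2.08 to 2.66), and Herc6 at 38.5 and 15.3 CPM, or 2.52-fold lower (2.36 to 2.69). Parp14 stood at 9.27 and 1.75 CPM, or 5.28-fold lower (4.43 to 6.33).

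Other members were closer between the libraries. Trim25 stood at 32.9 and 44.8 CPM, a ratio of 1.36 (1.29 to 1.43), Eif2ak2 at 25.6 and 19 CPM and Ifi35 at 58.4 and 39.9 CPM. Parp9 and Dtx3l stood at 13 and 7.03 and 9.73 and 6.39 CPM, and Ifit2 at 9.49 and 8.49 CPM. These 6 members are the ones at a mean of 5 CPM or more that were not called, together with Ly6e. Below the floor stood Irf7 at 6.62 and 0.951 CPM, Xaf1 at 5.90 and 2.51 CPM and, of the IFIT genes, Ifit1 at 5.43 and 1.16 CPM. Rtp4 had 174 and 5 UMIs and Mx1, a GTPase that traps viral particles and is listed in this pair alone, 94 and 17 UMIs. The OAS family lay between 0.218 and 3.48 CPM in both libraries. With no floor beyond 10 UMIs, 23 members were called lower. The share of all genes called under that rule is not given, so this count has no background.

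Cells with many members were rare in the allograft tumours. Of 12678 thinned preSC_WT tumour cells, 0.134% (0.0781 to 0.215) had at least 5 distinct members, and 0 of 13312 preSC_CracdKO cells did, which allows a share of up to 0.0225%. The mean was 0.621 and 0.283 distinct members per cell, and 53.9% and 75.3% of cells had none. In preSC_WT 1 cell reached 20 distinct members, while the highest preSC_CracdKO cell had 4. Ifit1 and Isg15 had overdispersions of 248 and 84.7 in preSC_WT, far above Ifi27 with 0.548. No allograft tumour cluster had 3 or more members among its 10 leading genes.

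Immune cells of preSC_CracdKO were few, and for most members a difference was not detectable at this depth. Its T cells numbered 71 against 1700 in preSC_WT, where 1 UMI equals 10.5 CPM in the smaller class and a count of 0 allows 31.6 CPM. Of the 36 listed members, 23 were called lower and 0 higher, where 32.8% and 15.3% of the 10314 genes tested were. Of the 23, 13 had 0 UMIs and 9 had 1 to 3 in preSC_CracdKO, and for none of the 13 did the limit of a count of 0 leave a ratio of 2. Ifi27l2a, with 4 UMIs in preSC_CracdKO, stood at 507 and 42.1 CPM, or 12.1-fold lower (4.70 to 44.3). These 4 UMIs lay in 1 cell, which the interval for counting error does not take into account. Tumour markers in these T cells summed to 3022 CPM in preSC_WT and 221 CPM in preSC_CracdKO, with 0 and 12 of 16 markers at 0, and their part was not tested. In B cells (1009 and 99), 14 were called lower and 1 higher, where 18.9% and 22.8% of 9044 genes tested were. Of the 14, 7 had 0 UMIs and 6 had 1 to 3, which leaves Ifi27l2a at 259 and 105 CPM, or 2.48-fold lower (1.28 to 5.48). Eif2ak2 was the member called higher there, with a ratio of 2.29 (0.565 to 6.88).

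Allograft myeloid cells (729 and 108) had more RNA behind them. Of the 36 listed members, 14 were called lower and 0 higher, where 16.2% and 13.6% of the 11256 genes tested were, and the median log2 ratio was -0.75 against 0.03. Bst2 stood at 442 and 67.7 CPM, or 6.52-fold lower (4.15 to 10.9), and Isg15 at 239 and 35.6 CPM, or 6.70-fold lower (3.61 to 14.1). Ifi27l2a stood at 644 and 132 CPM, or 4.89-fold lower (3.53 to 6.97), and Irf7 at 103 and 21.4 CPM, or 4.80-fold lower (2.17 to 13.2). Zbp1, Ifih1, Ifit2, Parp14 and Xaf1 were also called lower with intervals below a ratio of 1, and 4 of the 14 rested on 1 to 3 UMIs. The class held 724 macrophages and 5 neutrophils in preSC_WT against 39 and 69 in preSC_CracdKO. The preSC_CracdKO neutrophils had 0 UMIs of Bst2 and 1 of Isg15, so the pooled ratios above do not compare like cells. The part of this makeup in them was not tested. In macrophages alone the median was -0.20 with 4 members called higher and 10 lower. No share or median over all genes tested is given for macrophages alone.

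By class, most allograft members stood lowest in tumour cells of preSC_WT (24 of 36) and highest in its myeloid cells (19 of 36). Values follow with preSC_WT first and preSC_CracdKO second, in CPM. Isg15 had 239 and 35.6 CPM in myeloid cells, 154 and 31.6 (3 UMIs) in T cells and 10.7 and 0 UMIs (up to 34.9 CPM) in B cells. Bst2 had 442 and 67.7 CPM in myeloid cells, 179 and 31.6 (3 UMIs) in T cells and 77.1 and 34.9 (3 UMIs) in B cells. Ifitm3 had 2069 and 1105 CPM in myeloid cells, 44 and 0 UMIs (up to 31.6 CPM) in T cells and 22.5 and 0 UMIs (up to 34.9 CPM) in B cells. Myeloid levels of these members thus far exceeded their tumour-cell levels in preSC_WT. Trim30a had 126 and 96.2 CPM in myeloid cells, 104 and 137 in T cells and 96.3 and 116 in B cells, against 9 and 3 UMIs in all tumour cells. Ly6e had 483 and 314 CPM in myeloid cells, 319 and 536 in T cells and 1127 and 1650.4 in B cells, highest in B cells. Samd9l, also highest in B cells, had 34.7 and 39.2 CPM in myeloid cells, 72.3 and 126 in T cells and 162 and 151 in B cells. Cmpk2, whose highest class in preSC_WT was the tumour cells, had 16.6 and 3.56 (1 UMI) in myeloid cells, 16 and 0 UMIs (up to 31.6 CPM) in T cells and 4.28 and 0 UMIs (up to 34.9 CPM) in B cells. Rsad2 had 104 and 92.7 CPM in myeloid cells, 27.7 and 0 UMIs (up to 31.6 CPM) in T cells and 3.21 (3 UMIs) and 0 UMIs (up to 34.9 CPM) in B cells. Ifi27 had 135 and 78.4 CPM in myeloid cells, 201 and 147 in T cells and 98.5 and 34.9 (3 UMIs) in B cells.

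Counts in the preSC_CracdKO immune classes were thin for the other members too. Ifih1 had 64.3 and 21.4 CPM in myeloid cells, 29 and 0 UMIs (up to 31.6 CPM) in T cells and 1.07 (1 UMI) and 0 UMIs (up to 34.9 CPM) in B cells. Zbp1 had 102 and 25 CPM in myeloid cells, 90.3 and 31.6 (3 UMIs) in T cells and 53.5 and 0 UMIs (up to 34.9 CPM) in B cells. Herc6 had 37.7 and 21.4 CPM in myeloid cells, 76.3 and 10.5 (1 UMI) in T cells and 24.6 and 34.9 (3 UMIs) in B cells. These members were present in preSC_WT T cells at levels above those of its tumour cells. Trim25 had 113 and 121 CPM in myeloid cells, 32.3 and 10.5 (1 UMI) in T cells and 68.5 and 81.4 in B cells. Parp14 had 95 and 39.2 CPM in myeloid cells, 91 and 84.1 in T cells and 99.6 and 34.9 (3 UMIs) in B cells. Irf7 had 103 and 21.4 CPM in myeloid cells, 70.7 and 42.1 in T cells and 19.3 and 0 UMIs (up to 34.9 CPM) in B cells. Parp14 and Irf7 are among the members called lower in myeloid cells. Ifi35 had 89.5 and 49.9 CPM in myeloid cells, 91 and 84.1 in T cells and 59.9 and 23.2 (2 UMIs) in B cells. Eif2ak2 had 29.2 and 57 CPM in myeloid cells, 26.7 and 0 UMIs (up to 31.6 CPM) in T cells and 20.3 and 46.5 in B cells. Across T cells of preSC_WT the other listed members ranged from 1.33 CPM (Oas2) to 507 CPM (Ifi27l2a).

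Other genes of the pathway were counted from a list of ligands, receptors, kinases and factors, sensors, inhibitors and interferon gamma GTPases. In lung tumour cells 30 of them were tested and 0 called. With RPR2 first, the receptor chain Ifnar1 had 20.4 and 22.2 CPM, the chain Ifnar2 34.7 and 40.4 CPM and the factor Irf9 34.7 and 24.5 CPM. Ligand RNA was scarcely captured, since 3 of 12 ligand genes had a UMI in lung tumour cells and Ifnb1 had 1 UMI. In pooled T cells 11 of 36 pathway genes tested were called higher and 0 lower, where 7.5% and 22.0% of all genes tested were, among them Ifng at 31.0 and 89.0 CPM, Socs3 at 33.1 and 86.7 CPM, Tmem173, which encodes the DNA-sensing adaptor STING, at 12.9 and 35.8 CPM and Gbp2, a GTPase induced by interferon gamma, at 14.1 and 31.3 CPM. The others were Il10rb, Tyk2, Irf9, Myd88, Gbp3, Gbp5 and Iigp1, in the same T class whose clusters differed. In B cells 4 of 33 tested were called lower (Adar, Myd88, Irgm1 and Igtp), where 5.94% of all genes tested were. In myeloid cells 1 of 38 was called higher (Mavs) and 2 lower (Traf3 and Ticam1), where 8.73% and 5.01% of all genes were. In club cells 1 of 34 was called lower (Socs1, at 8.44 and 3.69 CPM), where 3.43% of all genes were. The myeloid and club counts lay near or below these shares and do not set the pathway apart from other genes.

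In allograft tumour cells 12 of 25 pathway genes tested were called, 10 of them lower and 2 higher in preSC_CracdKO, where 14.8% and 8.02% of all genes tested were called lower and higher. Stat3, a signal transducer shared with other cytokines, stood at 209 CPM in preSC_WT and 92.7 CPM in preSC_CracdKO, or 2.26-fold lower. Irf1 and Irf2, factors that activate and restrain interferon targets, stood at 30.2 and 12.1 CPM and at 125 and 61.2 CPM. The receptor-bound kinases went in opposite directions. Jak2 stood at 44.0 and 17.2 CPM, or 2.56-fold lower, while Jak1, the kinase of the type I receptor, stood at 3.18 and 70.3 CPM, a ratio of 22.1 (19.5 to 25.2) with preSC_CracdKO the higher. Ifnar2 was also higher, at 6.87 and 14.4 CPM. Among inhibitors, Socs1 stood at 10.2 and 1.68 CPM, Socs3 at 39.0 and 15.1 CPM and Ptpn6 at 11.1 and 1.11 CPM. Mb21d1, which encodes the DNA sensor cGAS, stood at 28.5 and 13.4 CPM and Mavs, the adaptor of the RNA sensors, at 8.31 and 3.83 CPM.

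Genes outside the list were ranked by how closely they followed the members from cell to cell in RPR2. Over the 2967 thinned RPR2 tumour cells, 6923 genes that are no members were ranked by Pearson's correlation with the number of distinct members, as a description in sparse counts that share a library and a depth. H2-D1, a class I heavy chain, came first with r = 0.249, followed by B2m, its light chain, with 0.237 and H2-K1 with 0.216. Apol9a had 0.202, Psmb8, a subunit of the immunoproteasome, 0.165, and Iapp, Apol9b, Lgals9 and Clca3b had 0.146, 0.134, 0.130 and 0.108. These values are weak. In CRPR2 these named genes had 0.0563 to 0.129, in preSC_WT 0.0211 to 0.0830 and in preSC_CracdKO -0.00615 to 0.0243. In tumour cells of RPR2, CRPR2, preSC_WT and preSC_CracdKO, in this order, H2-D1 had 1879.9, 1086, 470.5 and 69.4 CPM and B2m 612, 489, 46.7 and 6.80 CPM. Apol9a had 46.8 CPM in tumour cells of RPR2 against 13.9 CPM in those of CRPR2.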

How the data were processed

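Fresh tumours were minced, digested with enzymes, filtered, freed of red and dead cells and loaded on a 10x Genomics 3-prime kit, per the labels' protocols. The deposited files hold raw counts of UMIs per gene and cell barcode, which the authors made with Cell Ranger, version 6.1.2 for the lung pair and 5.0.0 for the allograft pair per the file headers (6.1.2 and the mouse build mm10 per the submitters' processing notes, which also name Scanpy 1.8.2 and Seurat 1.8.2). The feature lists share 30406 features. How the authors treated strand, cell filters and doublets is not given in the sources used.

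Barcodes were kept from 300 detected genes upwards and up to a mitochondrial share of 15%, and Scrublet calls were removed. In CRPR2 and preSC_CracdKO its automatic threshold marked under 0.5% of barcodes, so the highest scores were removed instead, at 0.8% per 1000 barcodes, which took out 9.73% and 13.0% of barcodes against 2.84% in RPR2 and 1.93% in preSC_WT. Each pair was clustered in scanpy 1.11.5 (2000 variable genes, 50 components, 15 neighbours, Leiden resolution 1.0, seed 1), and clusters were named from fixed markers by a score. The naming score and the splitting of mixed clusters were set after seeing the clusters. Cells used were 8869 (RPR2), 10798 (CRPR2), 18111 (preSC_WT) and 14035 (preSC_CracdKO), at a median of 2791 to 5790 UMIs per cell.

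UMI counts were summed per class and library, divided by all UMIs of the class to give CPM, and compared between the libraries of a pair. Levels have exact Poisson intervals, ratios exact conditional binomial ones and shares exact Clopper-Pearson ones, and a count of 0 allows 3 counts. Calls need a ratio of 2 either way and a mean of at least 5 CPM. The calling rule was tested on simulated data. Members were taken by symbol, described by role, and named with values where they reached 20 CPM in tumour cells of any library or were called in a class. The members and gene lists were chosen with earlier results of these data known. The alternatives were TMM scaling (edgeR 4.0.16), doublets kept, a limit of 10% mitochondrial UMIs, 5 CPM added, other floors, other cluster sets, other depths of thinning and, chosen after seeing the data, shared T clusters only and tumour clusters weighted alike. The values of 1 pathway gene are not reported here.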

Additional observations from a re-analysis of the deposited data

Results flagged for a closer look

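Ifit1 and Ifi27l2a were called in opposite directions in different lung classes, and the difference between the classes was not tested. For Ifit1 the log2 ratio of CRPR2 to RPR2 was 1.70 in T cells, -1.38 in myeloid cells and -1.22 in club cells. For Ifi27l2a it was 1.24 in T cells, -1.16 in myeloid cells and -1.18 in club cells. The pooled T-cell values come from clusters that the libraries filled unequally, as given above.

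Clusters left without a name, which entered no comparison, also held member RNA. The summed member level was 1048 CPM in cluster 13 of CRPR2 (497 cells, at a median of 13329 UMIs per cell). In preSC_WT they included number 16 with 285 cells and 567 CPM, number 22 with 53 cells and 913 CPM, and number 24 with 71 cells and 926 CPM. For preSC_CracdKO the value was 197 CPM, over 80 cells of cluster 16. Levels of unnamed clusters with fewer cells in a library are not given. Among these are allograft cluster 23 with 36 preSC_WT cells and lung cluster 23 with 23 CRPR2 cells.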

How the results depend on the processing

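Of 267 alternative values, 119 medians, counts and shares and 87 ratios of members stayed close to the main value, 42 medians, counts and shares and 16 ratios moved, and 2 and 1 turned direction. In lung tumour cells 4 members were called lower at a mean of at least 20 CPM, and with clusters weighted alike 2 were, at a median log2 ratio of -0.25. In lung T cells the median was 0.80 with TMM (10 higher, 0 lower), 0.40 with doublets kept (0 lower) and 0.39 with 5 CPM added; it turned to -0.20 without thymocyte clusters (0 higher) and to -0.38 in shared clusters (0 higher, 4 lower), and 3 were higher at 20 CPM. In lung B cells 2 were higher with doublets kept, where the Ifitm3 ratio turned to 1.57, and 3 lower at 20 CPM. In lung myeloid cells 1 was higher at 10% mitochondrial UMIs, 1 lower at 20 CPM, 3 higher and 4 lower in macrophages and 1 higher and 4 lower in monocytes (median -0.22). In club cells TMM gave -0.36 and 3 lower, and doublets kept 9 lower. In allograft tumour cells the median was -0.52 with 5 CPM added, 4 were lower at 20 CPM and 23 with no floor beyond 10 UMIs. At 20 CPM 12 were lower in allograft T cells and 7 in B cells, where TMM, which moved all log2 ratios there by -0.24, gave 0 higher. Allograft macrophages alone gave a median of -0.20, with 4 higher and 10 lower. For macrophages or monocytes alone, in either pair, no share over all genes tested is given. The same holds for the other alternatives here except the shared T cluster, so their counts of calls have no background. The share of tumour cells with at least 5 members was 25.9% in RPR2, 14.4% in CRPR2 and 0.944% in preSC_WT at 2000 UMIs, and 66.5%, 38.9%, 18.1% and 3.75% (preSC_CracdKO) without thinning. With at least 3 members it was 34.4%, 24.3%, 2.68% and 0.255%. The allografts held no monocyte cluster and no tumour cluster led by members, so those alternatives gave no value there. No paired analysis was possible because each group had 1 library.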

Other observations

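Stromal cells, which entered no comparison because they were few in at least 1 library of each pair, carried more member RNA than tumour cells. Fibroblasts had a summed member level of 5398 CPM (45 cells) in RPR2, 3339 CPM (138 cells) in CRPR2 and 8783 CPM (467 cells) in preSC_WT. Ifitm3 made up the largest of the listed values there, at 2438, 1932 and 3527 CPM, and Ifi27l2a stood at 746, 168 and 1857 CPM. Ly6e stood at 610.3 CPM in RPR2 fibroblasts, 151 CPM in CRPR2 fibroblasts and 534 CPM in preSC_WT fibroblasts.

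In preSC_WT, endothelial cells (251) summed to 6864 CPM and pericytes (169) to 5484 CPM. Endothelial cells had Rsad2 at 204 CPM, Ifi44 at 98.0 CPM and Bst2 at 831 CPM, against 19.8, 34.4 and 382 CPM in pericytes. Plasma cells of the lung pair, 70 in RPR2 and 146 in CRPR2, summed to 1481 and 1391 CPM, with Bst2, which is known as an antigen of plasma cells, at 209 and 334 CPM. Natural killer cells (35 and 107) summed to 1230 CPM (994 to 1505) in RPR2 and 1300.2 CPM (1149 to 1466) in CRPR2, and these intervals overlap.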
